A study of Mus musculus with 2 samples.

Results

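In an anti-FLAG CUT&Tag library from mouse hippocampus, 127 of the 99782 peaks to which a gene had been assigned belonged to genes named as parts of the proteasome. The members were taken by name alone: every peak whose assigned symbol starts with Psm, a letter from a to g and a digit was kept, and pseudogenes (-ps in the name) were left out. The rule uses no measured value, although members were chosen with earlier results of these data known. The 127 peaks were assigned to 44 genes. The GENCODE M21 annotation holds 51 such protein-coding genes when current symbols are used (it lists Psme3ip1 under its older name Fam192a), and the 7 without an assigned peak are counted below as well. Of the 51, Psmc3ip (a meiotic recombination factor), Psme3ip1 (a protein that binds the Psme3 activator) and Psme2b are not known as subunits and are described under their names only.

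CUT&Tag uses an antibody to bring the transposase Tn5 to a chromatin protein, so that the DNA beside that protein is cut and sequenced. The series holds 2 libraries, 1 with anti-FLAG and 1 with control IgG, from untreated hippocampal tissue of the genotype CamK-PARIS on C57BL/6J. PARIS, the product of the mouse gene Zfp746, is a zinc-finger protein that represses transcription, and it was captured by its FLAG tag, a short peptide. Peaks of the anti-FLAG library had been called against the IgG library, of which no file was analysed here, and both libraries carry the same genotype. The age of the mice, the number of animals, any pooling and the promoter behind the name CamK are not given in the sources used here. With 1 library per antibody there is no replicate error and no test. The 95% Wilson intervals given with shares cover counting error over peaks or genes only, and the sequencing depth is unknown. In bulk tissue, more cells with a bound site and more binding per cell cannot be told apart in the height of a peak.

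The proteasome is the protease that degrades proteins marked with ubiquitin. Its 20S core is a barrel of alpha rings, which gate the entry, and beta rings, which carry the protease sites. The 19S regulatory particle caps the barrel: its ATPases unfold the substrate, and its non-ATPase subunits bind and remove ubiquitin and hold the lid together. Other activators and an inhibitor can bind the core, and dedicated chaperones assemble both parts. PARIS has been described as a substrate that the ubiquitin ligase parkin marks for degradation by the proteasome. In neurons the proteasome is known for protein turnover at synapses.

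Exon-free sequences from the highest peaks at proteasome gene starts are shown first. The heights given below refer to the whole peaks. Height is the authors' maximum signal, the highest coverage within a peak, in units of coverage. The stretches were read from GRCm38.p6 (mm10, plus strand) and hold no annotated exon. Capitals mark a motif word where one was found. The first 3 stretches, which do not cover the whole peaks, hold no match to any of the motif words searched below. The 200 bp centred on the maximum of the Psma3 peak begin ahead of its stretch and do hold matches, to CCAAT and TGACNNNGC. Psmd3 is shown by chr11:98682217-98682516, ahead of the gene start, Psmg4 by chr13:34163250-34163549 and Psma3 by chr12:70974768-70974928, both behind the first exon. The region of maximum signal lies inside the Psmd3 stretch, but ahead of the Psmg4 and Psma3 stretches.
Psmd3: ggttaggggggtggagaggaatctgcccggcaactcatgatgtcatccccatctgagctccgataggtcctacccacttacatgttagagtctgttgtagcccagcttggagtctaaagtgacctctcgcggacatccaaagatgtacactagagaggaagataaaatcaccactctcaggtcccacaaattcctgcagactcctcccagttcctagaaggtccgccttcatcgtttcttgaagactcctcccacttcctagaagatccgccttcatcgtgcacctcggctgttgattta
Psmg4: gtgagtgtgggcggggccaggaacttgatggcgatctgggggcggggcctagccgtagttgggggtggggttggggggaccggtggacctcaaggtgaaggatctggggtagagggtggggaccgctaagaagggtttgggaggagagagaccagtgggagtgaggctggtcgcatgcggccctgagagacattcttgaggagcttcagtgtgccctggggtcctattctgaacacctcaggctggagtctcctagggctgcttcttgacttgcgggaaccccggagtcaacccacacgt
Psma3: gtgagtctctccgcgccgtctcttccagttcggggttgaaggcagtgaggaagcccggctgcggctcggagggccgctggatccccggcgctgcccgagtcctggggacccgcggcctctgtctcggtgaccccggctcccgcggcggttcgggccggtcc
The Psmd11 stretch, chr11:80428315-80428614, ends at the base before the gene start and carries the ETS word in capitals, described with the motifs. The Psmb3 stretch, chr11:97711280-97711579, was picked for its words and lies in a lower peak (maximum signal 73) far inside the gene, near another transcript start. No other exon-free stretch read from the proteasome peaks within 1 kb of a TSS held the insulin response sequence. The Psmb3 stretch carries a CCAAT word (on the minus strand) and TATTTTT, a form of the insulin response sequence to which PARIS is reported to bind. The region of maximum signal of that peak, chr11:97711173-97711306, reaches only the first bases of the stretch and covers neither word.
Psmd11: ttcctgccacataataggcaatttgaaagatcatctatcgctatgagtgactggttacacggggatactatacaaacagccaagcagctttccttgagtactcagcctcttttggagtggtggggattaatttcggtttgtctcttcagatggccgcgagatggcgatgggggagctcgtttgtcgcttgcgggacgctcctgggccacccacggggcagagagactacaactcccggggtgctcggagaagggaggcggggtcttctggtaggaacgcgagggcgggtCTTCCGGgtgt
Psmb3: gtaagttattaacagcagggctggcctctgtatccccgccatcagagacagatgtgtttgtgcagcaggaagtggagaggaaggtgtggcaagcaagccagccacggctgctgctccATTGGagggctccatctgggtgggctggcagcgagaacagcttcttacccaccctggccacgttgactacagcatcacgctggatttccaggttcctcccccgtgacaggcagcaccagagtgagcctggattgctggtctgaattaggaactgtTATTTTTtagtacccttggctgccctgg

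Proteasome genes had a peak at their start more often than protein-coding genes as a whole. A peak lay within 1 kb of the gene start (the 5′ end of the gene in GENCODE M21) for 29 of 51 genes (56.9%, 43.3 to 69.5), against a background of 39.3% of 21938 protein-coding genes. The start base itself lay inside a peak for 15 of 51 (29.4%, 18.7 to 43), an interval that includes the background of 20.4%. Counting any annotated transcript start, 34 of 51 genes had a peak within 1 kb (66.7%, 53.0 to 78.0), against 47.6%. The 5 genes gained in this way were Psmb6, Psmc6, Psmd5, Psmd6 and Psmf1. The difference from the background was seen at each distance tried, up to 10 kb, where 44 of 51 proteasome genes (86.3%) and 67.6% of all genes had a peak.

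Many peaks of this list have a constant height, that is, a total signal of at least 99% of the maximum signal times the width, as a rectangle would have. Peaks of variable height, which have an inner profile, were counted separately. A variable-height peak lay within 1 kb of the start of 20 of 51 proteasome genes (39.2%, 27 to 52.9), against 27.8% of all genes, so that the interval reaches down to the background. Variable-height peaks contained the start of 14 of the 15 genes whose start lay inside a peak. Psmb1 was the exception. Over all protein-coding genes, variable-height peaks contained 3800 of the 4476 starts inside a peak, so that such peaks prevailed in both groups.

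**Figure D1:**
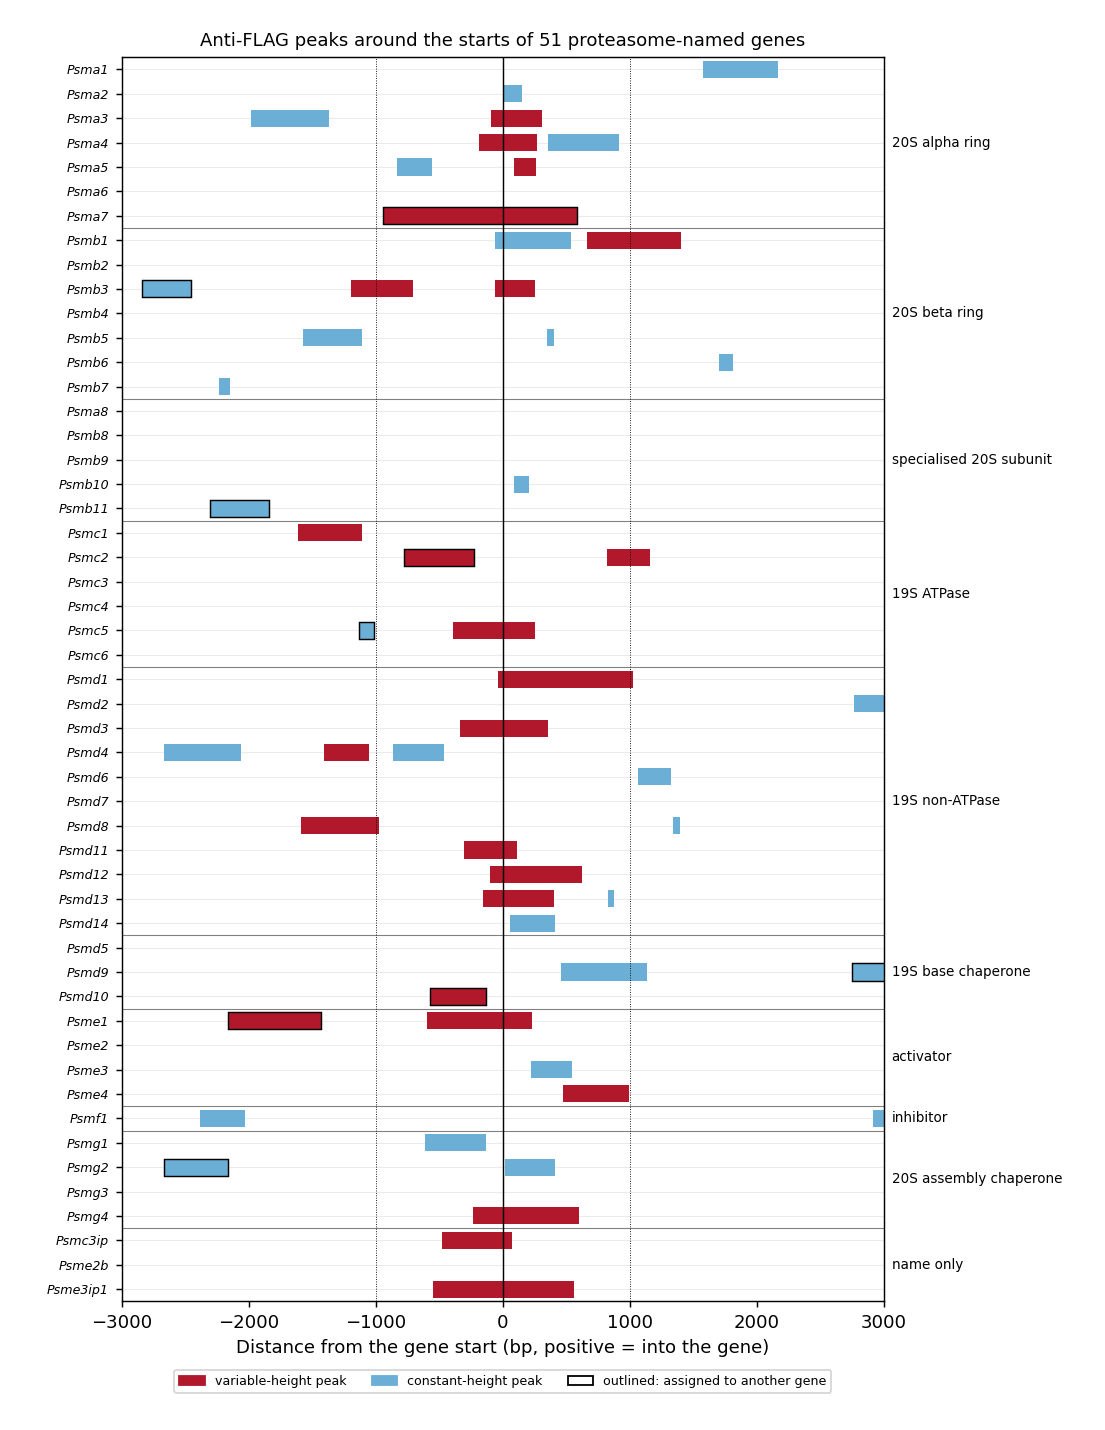
Peaks of the anti-FLAG library (bars) around the starts of the 51 proteasome-named genes, by role, with distance from the gene start in bp on the horizontal axis and positive values pointing into the gene. Variable-height peaks are red, constant-height peaks are blue, outlined bars were assigned to another gene, and 15 starts (vertical line) lie inside a peak.

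The composition of the promoters differed between proteasome genes and the background. Over the 250 bases before to 50 bases after the gene start, the ratio of observed to expected CpG had a median of 0.753 for proteasome genes and 0.525 for all protein-coding genes. Among genes with a ratio of at least 0.6, 21 of 35 proteasome genes had a peak within 1 kb (60%, 43.6 to 74.4), and 58.4% of all genes did. Below that ratio, 8 of 16 proteasome genes had one (50%, 28 to 72), against 24.2% of all genes. The difference at gene starts was thus small among CpG-rich promoters and wider among the 16 others. Proteasome genes without a peak had CpG ratios (median 0.732) close to those with one (0.754), whereas among all genes the medians were 0.326 without and 0.728 with a peak. This division by CpG ratio was chosen after the data had been seen.

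**Figure D2:**
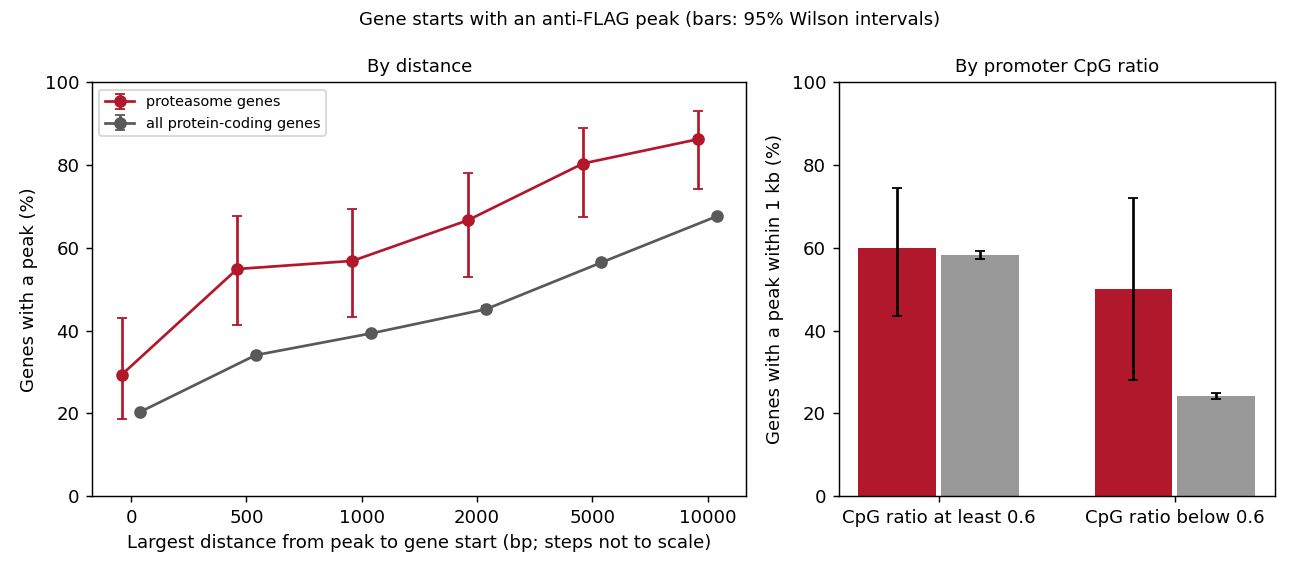
Share of gene starts (%, with 95% Wilson intervals) with an anti-FLAG peak, by the largest distance allowed (left, steps not to scale) and by promoter CpG ratio (right, distance of 1 kb), for proteasome genes (red) and all protein-coding genes (grey). At 1 kb the shares are 56.9% and 39.3%, and in the CpG-rich class they are 60% and 58.4%.

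The 127 assigned peaks lay nearer to starts than the peak list as a whole. By the authors' distance from the region of maximum signal to the assigned transcription start site (TSS), 42 of 127 lay within 1 kb (33.1%, 25.5 to 41.6), against 15.3% of all annotated peaks. The region of maximum signal covered the TSS in 9 of the 42, lay upstream in 14 (33.3%, 21 to 48) and downstream in 19 (45.2%, 31 to 60). Among all peaks within 1 kb it lay upstream in 40.6% and downstream in 39.7%, and both intervals include these values. Introns held 19 of the 127 peaks (15.0%, 9.79 to 22.2), against 38% of all peaks, and 3′ UTRs held 7 (5.51%, 2.70 to 10.9), against 1.75%. The distal intergenic share was like that of the list, at 31.5% and 31.9%. Proteasome genes are shorter than most (median length 11.8 kb against 17.4 kb). Per Mb of gene body, regions of maximum signal were about as frequent in them as in all protein-coding genes (58.1 and 54.5).

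Peaks at proteasome gene starts did not stand above other peaks near starts in height. The median maximum signal of the 42 peaks within 1 kb was 107 (95% interval 97 to 131), with a range from 21 to 374, and that of all peaks within 1 kb was 116 (115 to 117). Constant-height peaks made up 22 of the 42 (52.4%, 37.7 to 66.6), against 44.5% of all peaks within 1 kb. Within each shape the medians were also near the background, at 144 against 160 for variable-height and 99 against 90 for constant-height peaks. Maximum signal is a height per base and is compared between genes below, while total signal also grows with the width of a peak.

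**Figure D3:**
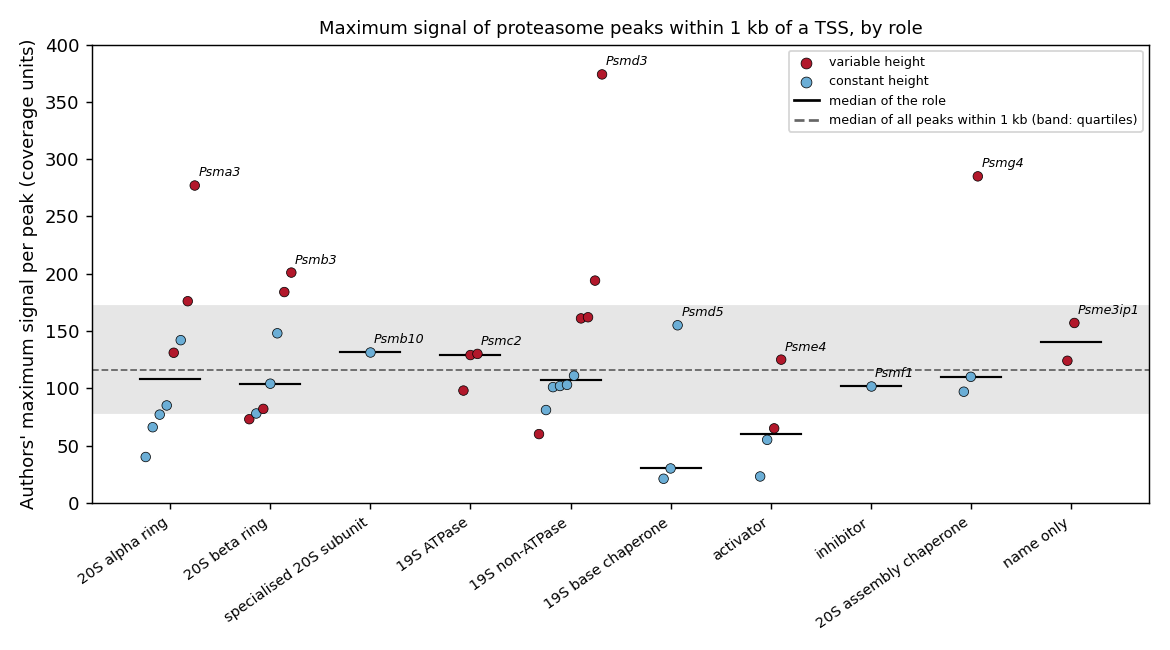
The authors' maximum signal (coverage units, vertical axis) of each of the 42 proteasome peaks within 1 kb of a TSS, by role, with black bars at the median of each role. The dashed line and grey band give the median (116) and quartiles (78 to 172) of all peaks within 1 kb, and Psmd3 (374), Psmg4 (285) and Psma3 (277) stand highest.

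Of the 7 alpha-ring genes of the 20S core, 5 had a peak within 1 kb of the start. The highest was at Psma3, with a maximum signal of 277 and a total signal of 54394 (chr12:70974531-70974928), and it contained the gene start. Psma4 had a variable-height peak of 176 over its start and a constant-height peak of 77 just inside the gene. At Psma5 a variable-height peak of 131 lay 89 bp from the start and a lower one of 66 lay upstream. Psma2 had a constant-height peak of 142, and a second assigned peak of 40 at another of its starts. The start of Psma7 lay inside a wide variable-height peak of 255 (chr2:180041852-180043377) that had been assigned to the neighbouring gene Ss18l1, and its own assigned peak reached 85. Psma1 and Psma6 had no peak within 1 kb of the start, the nearest lying 1576 and 3960 bp away.

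The beta ring holds the protease subunits Psmb5, Psmb6 and Psmb7, and 3 of its 7 genes had a peak within 1 kb of the start. Psmb3, a structural subunit, had the highest, a variable-height peak of 201 at -930 bp from the TSS (negative distances are upstream) (total signal 71265), followed by one of 184 over the start. Psmb1 had peaks of 82 and 78, both below the median of peaks near starts. Among the protease subunits only Psmb5 had a peak near the gene start, a constant-height peak of 104 that was 51 bp wide. Psmb6 had a constant-height peak of 148 at another transcript start, 1705 bp from the gene start, and the nearest peak to the start of Psmb7 lay 2149 bp away. Psmb2 and Psmb4 were farther from any peak, at 16737 and 31405 bp.

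Of the 5 subunits that replace the standard ones in particular cells, 1 had a peak within 1 kb of the start, too few genes to set apart from the 39.3% of all protein-coding genes. These are the inducible immunoproteasome subunits Psmb8, Psmb9 and Psmb10, the thymus subunit Psmb11 and the testis subunit Psma8. The peak was at Psmb10, of constant height, with a maximum signal of 132, 92 bp from the start. The nearest peaks lay 1837 bp from the start of Psmb11, 5553 bp from Psmb8, 15510 bp from Psmb9 and 20213 bp from Psma8. Psma8, Psmb8 and Psmb9 had no assigned peak at all.

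The 6 ATPases of the 19S base, which form the ring that unfolds substrates, had a peak within 1 kb of the start in 2 cases. Psmc5 had a variable-height peak of 98 over its start (total signal 57562). Psmc2 had one of 130 at 824 bp into the gene and another of 35 on the other side, assigned to Dnajc2. Psmc6 had a peak of 129 beside another of its transcript starts, 3418 bp from the gene start. All assigned ATPase peaks within 1 kb of a TSS were thus of variable height, at 98, 129 and 130. The nearest peak lay 1109 bp from the start of Psmc1, 6436 bp from Psmc3 and 4969 bp from Psmc4.

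The non-ATPase subunits of the 19S particle had the highest peak and the peak with the most signal of all 127. A peak lay within 1 kb of the start for 8 of 11 genes. At Psmd3, a lid subunit, the maximum signal was 374 and the total signal 109606 (chr11:98682217-98682911), higher than 97.0% of all peaks within 1 kb of a TSS. Psmd1, the large scaffold subunit of the base, had the highest total signal, 113796, over a peak 1058 bp wide with a maximum of 194 (chr1:86064350-86065407). The lid subunits Psmd12 and Psmd11 had variable-height peaks of 162 (total signal 84029) and 161 over their starts. These 4 peaks stood above the median of 116 near starts, and the other assigned peaks of this group near a TSS stood below it. They ranged from 60 at Psmd13 to 111 at Psmd6, a peak at another transcript start 1062 bp from the gene start. In between stood Psmd14, the deubiquitinase of the lid, at 103 and Psmd4, a ubiquitin receptor, at 81, both of constant height. Psmd8 had a variable-height peak of 120 that reached to 974 bp from the gene start, although its region of maximum signal lay farther out. The nearest peak to the start of Psmd2, the other scaffold of the base, lay 2762 bp away, and for Psmd7, the partner of Psmd14, it lay 19633 bp away.

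Among the chaperones that assemble the 19S base, Psmd5 had a constant-height peak of 155 (total signal 48512) at a transcript start, 3707 bp from the gene start. Psmd9 had only low peaks, of 30 and 21, near its starts, so that the median of the 3 base chaperone peaks near a TSS was 30. The start of Psmd10 lay 135 bp from a variable-height peak of 124 (chrX:140956863-140957304) that had been assigned to Atg4a, and no peak had been assigned to Psmd10 itself.

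The activators, which open the core without the 19S cap, had 4 peaks near a TSS with a median maximum of 60 and a range from 23 to 125. Psme4, the nuclear activator known as PA200, had a variable-height peak of 125 (total signal 51360), and another of its transcripts a constant-height peak of 55. Psme1 had a variable-height peak of 65 over its start, and Psme3 a constant-height peak of 23, higher than only 2.78% of peaks near starts. Psme2, the partner of Psme1, was 12764 bp from the nearest peak. The inhibitor Psmf1 had a constant-height peak of 102 at a transcript start, 2030 bp from the gene start.

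The chaperones that assemble the 20S core had a start peak at 3 of 4 genes. Psmg4 had the second-highest maximum of all 127 peaks, 285, with a total signal of 104151 (chr13:34162728-34163564). Psmg2 and Psmg1 had constant-height peaks of 110 and 97, and the nearest peak to the start of Psmg3 lay 6195 bp away. Of the genes that share only the name, Psme3ip1 had a variable-height peak of 157 (total signal 69167) and Psmc3ip one of 124, both over the start, while Psme2b was 18016 bp from any peak.

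Several of these starts are shared with a neighbour. Of the 42 peaks within 1 kb, 11 (26.2%, 15.3 to 41.1) also lay within 1 kb of the start of another protein-coding gene. The same share over all peaks within 1 kb was not counted, so sharing cannot be called particular to proteasome genes. The neighbours were Mrpl32 at Psma2, AY074887 at Psma4, Tbp at Psmb1, Dnajc2 at Psmc2, Ftsj3 at Psmc5, Sirt3 at Psmd13, Rspry1 at Psme3ip1 and Cep76 at Psmg2. For those peaks, which of the genes a peak belongs to cannot be told apart by position. Genes that do not code for protein were not looked at as neighbours. The assigned peaks of Psmd3, Psmg4 and Psma3, the highest of the 42, are not among them. The peak of 255 over the start of Psma7 is shared as well, being assigned to Ss18l1.

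Peaks were unevenly spread over the genes. The number assigned was 1 for 14 genes, 2 for 13 and 3 or more for 17. The 7 genes with at least 6 peaks held 50 of the 127. Psmb7 had the most, 11, all beyond 1 kb of its start, followed by Psma6, Psmc1 and Psmb3 with 7 and Psmd4, Psmb1 and Psme4 with 6. Psma6 and Psmc1 also had none within 1 kb.

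More than 10 kb from the TSS lay 42 of the 127 peaks (33.1%), against 57.5% of the list, and 14 of these were of variable height. The highest was assigned to Psma6, with a maximum of 283 at 39517 bp downstream of the TSS, and lay beside one of 145 at 35911 bp. At Psmb2 a peak of 236 lay at -16739 bp and was the nearest to that gene. Psmb1 had peaks of 188 at 30365 bp and 124 at 29606 bp downstream. Psmc1 was given a peak of 153 at -64415 bp, which lies in the gene Kcnk13. The peaks of 100 and 28 at Psmb7 and of 57 at Psme4 lay within those genes, and another Psmb7 peak, of 138, lay at -15472 bp. The others reached 139 at Psmd4, 102 at Psmg4, 84 at Psmg1 and 76 at Psmg3. Of all 42 far peaks, 4 lay inside another protein-coding gene (Prorp, Nek6 or Kcnk13), a share that was not counted over the whole list. Assignment to a gene at such distances rests on position alone.

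The regions of maximum signal were less GC-rich than those of other peaks near starts. In windows of 200 bp centred on them, GC content was 53.0% ± 9.99 (SD over 42 windows, 95% interval of the mean 49.9 to 56.0) for proteasome peaks within 1 kb and 57.5% ± 10.7 (SD over 15279 windows) for all peaks within 1 kb. Windows 1000 bp to either side had 44.8% ± 6.86 and 49.4% ± 7.39. The step from flank to centre was thus similar in both. Variable-height proteasome peaks had 56.3% ± 8.20 and constant-height ones 50% ± 10.7. The order was the same among all peaks within 1 kb, at 60.7% and 53.4%.

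Motif words were searched on both strands of the RefSeq promoters (GRCm38.p6), 47 windows for 43 of the proteasome genes, and of the 200 bp summit windows. The word that stood out in the promoters was CCGGAAG, the core bound by ETS factors. It was found in 17 of 47 proteasome promoters (36.2%, 24.0 to 50.5), against 11.6% of the promoters of protein-coding genes and 8.86% of all promoters. Among promoters with a CpG ratio of at least 0.6 it was found in 16 of 32 (50%, 33.6 to 66.4), against 19.7%. The 22 words lay in 16 genes, and 18 of them were upstream of the RefSeq start that defines the promoter window. That start can differ from the GENCODE gene start used above, and the positions given with the sequences are counted from the RefSeq start. Those lying inside a peak belonged to Psmd11, Psmd12, Psmc3ip and Psme3ip1, and are shown with 10 bases to either side on the gene's strand, with the word in capitals. Psmd2 and Psmc6, which had no peak within 1 kb of the gene start, are given for comparison.
Psmd11, 11 bases before the RefSeq start, chr11:80428594-80428620: gagggcgggtCTTCCGGgtgtgtgttt
Psmd12, 17 bases before, chr11:107479501-107479527: gagcgggcgaCTTCCGGtgcgagtgac
Psmc3ip, 77 bases before, chr11:101095496-101095522: ctacggggtcCCGGAAGgtccgggtac
Psmc3ip, 59 bases before, chr11:101095478-101095504: tccgggtactCTTCCGGcaggcttctt
Psmc3ip, 7 bases before, chr11:101095426-101095452: cgcctcctcaCCGGAAGgaggcgtttc
Psme3ip1, 16 bases after, chr8:94601695-94601721: gactatgccgCCGGAAGcggggtggaa
Psmd2, 26 bases before, chr16:20651616-20651642: ccgcagggcgCTTCCGGtctggaggac
Psmc6, 100 bases before, chr14:45329714-45329740: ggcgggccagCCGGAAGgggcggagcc

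Genes with and without the ETS word had start peaks at similar shares. A peak lay within 1 kb of the gene start for 10 of 16 genes with the word (62.5%, 38.6 to 81.5) and for 16 of 27 without it (59.3%, 40.7 to 75.5). Of the 22 words, 6 lay inside a peak. For comparison, the start base lay inside a peak for 29.4% of proteasome genes and 20.4% of all protein-coding genes. The share was not counted for ETS words in other promoters. In the summit windows the word was found in 3 of 42 (7.14%, 2.46 to 19), against 4.50% of all peaks within 1 kb. CCAAT, the word of nuclear factor Y, was the more frequent in summit windows, at 15 of 42 (35.7%, 23.0 to 50.8) against 21.1%. Its share of promoters (34.0%) was near that of protein-coding genes (38.2%). The lower end of the summit interval is close to the background, and several words were searched. Constant-height peaks made up 52.4% of the 42 and 44.5% of all peaks within 1 kb. In most of them the region of maximum signal spans nearly the whole peak, so their windows mark its middle. The summit windows were also not matched for GC content, which was lower in those of proteasome peaks (53.0% against 57.5%).

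The insulin response sequence, searched as TATTTTT or TATTTTG, was found in 3 of 47 proteasome promoters (Psmb5, Psmd1 and Psmg3, 6.38%, 2.20 to 17.2). The share was 9.54% for promoters of protein-coding genes and 11.3% for all promoters. Among promoters with a CpG ratio of at least 0.6 the order was the other way, at 3 of 32 (9.38%, 3.24 to 24.2) against 4.58% of protein-coding genes, and both intervals include their background. In the summit windows it was found in 1 of 42, at Psmb1 (2.38%, 0.421 to 12.3), against 5.40%. The core of the antioxidant response element, TGACNNNGC, through which Nfe2l1 and Nfe2l2 act on proteasome genes, was found in 6 of 47 promoters (12.8%), against 12.4% of all. Its summit matches were 2 of 42, at Psma3 and Psmd1 (4.76%, 1.32 to 15.8), against 8.28%. The words of nuclear respiratory factor 1 (GCATGCGC, 3 of 47 promoters, 6.38%) and YY1 (AAGATGGCG, 2 of 47, 4.26%) were rare. Protein-coding genes had 3.51% and 1.83%, and all promoters 2.71% and 1.40%. Among promoters with a CpG ratio of at least 0.6, the shares were 9.38% against 6.38% of protein-coding genes, and 6.25% against 3.52%. All these intervals include the background except those of the ETS word in promoters and CCAAT in summit windows, and a match is a match of letters only.

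**Figure D4:**
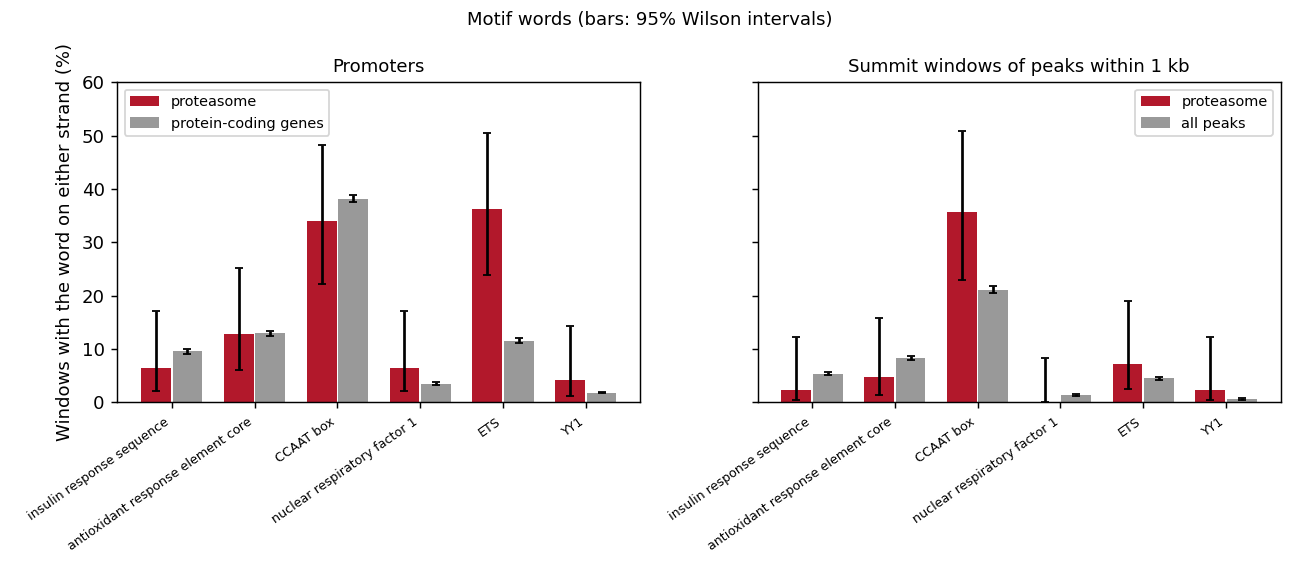
Share of windows (%, with 95% Wilson intervals) holding each motif word on either strand, in promoters (left; proteasome genes red, protein-coding genes grey) and in 200 bp summit windows of peaks within 1 kb of a TSS (right; proteasome peaks red, all peaks grey). The ETS word stands at 36.2% against 11.6% in promoters, and at 7.14% against 4.50% in summit windows.

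Other genes that work with the proteasome were taken from a list of 29, of which 28 were found in the annotation. A peak lay within 1 kb of the start of 19, and a variable-height peak of 12, where the shares over all protein-coding genes are 39.3% and 27.8%. The highest were at Nfe2l1, the transcription factor that raises proteasome genes when the protease is impaired (maximum signal 271), at the ubiquitin ligase Ube3a (267) and at the deubiquitinase Uchl5 (233), each over the gene start. These heights are like those of the highest start peaks of the subunits.

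The labelled tissue was looked at through peaks at the starts of marker genes, which is not a measure of expression. Of 6 markers of hippocampal excitatory neurons, Camk2a, Neurod2 and Slc17a7 had a peak within 1 kb (maximum signals 300, 180 and 413) and Neurod6, Prox1 and Zbtb20 had none. A peak was found at 2 of 3 interneuron markers, 1 of 3 of oligodendrocytes (Mbp), 0 of 3 of astrocytes, 1 of 3 of microglia (Aif1) and 0 of 5 markers of other organs. With 39.3% of all protein-coding genes having such a peak, counts over so few markers do not set the cell types apart. The part of each cell type in the proteasome peaks was not tested.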

How the data were processed

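Per the labels' protocols, reads were paired-end, and the authors used Bowtie2 for alignment to mm10 after trimming, filtered for quality and duplicates, and used SEACR with the IgG library as control for the peaks. Versions, SEACR mode and stringency are not given in the sources used here. The deposited peak list gives total and maximum signal per peak (coverage, whole numbers), and the authors' second deposited table gives the assigned gene and signed distance in bp to the TSS, by a tool and transcript set not given in the sources used here.

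Members and lists were chosen with earlier results of these data known, and the shape measure was chosen after the data were seen. Gene starts came from GENCODE M21 and sequence from GRCm38.p6, which is the mm10 build. Shares carry Wilson intervals and medians order-statistic intervals, computed with Python 3.11.15 and scipy 1.17.1, with counting checked on simulated data. Any of the 51 genes could be named. Values are given for the 10 peaks within 1 kb with the most total signal, the highest of each role, variable-height peaks beyond 10 kb and genes without a peak within 1 kb. Alternatives changed the peaks kept, the distance, the start, the shape threshold and the window. RPKM signal tracks were not used.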

Additional observations from a re-analysis of the deposited data

How the results depend on the processing

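Of 39 alternatives over 6 results, 30 kept the value within its interval (the peak count within 1.5 times) and 9 moved it further. Keeping only peaks with a maximum signal above the median of all peaks gave 69 peaks, a start share of 41.2% (all genes 27.6%), a median maximum of 142 and a GC content of 56.7%. Without constant-height peaks the values were 49 peaks, 39.2% (all genes 27.8%), 144 and 56.3%. Both subsets hold fewer peaks by construction. Requiring the start base inside a peak gave 29.4%. Restricting to promoters with a CpG ratio of at least 0.6, an alternative chosen after seeing the data, gave 60%. In each of these the start share stayed above that of all genes, by little in the last (58.4%). No paired analysis was possible because each antibody has 1 library. Without counts or depth, no limit of detection can be given for genes without a peak.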
